A study of Mus musculus with 16 samples.

Results

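Asns and 9 other genes of the Atf4 amino acid response were followed in 2 B cell subsets of the mouse spleen, follicular (FO) cells and marginal zone (MZ) cells. They were taken by symbol from the deposited table: Atf4, Ddit3, Trib3, Chac1, Asns, Slc7a11, Phgdh, Psat1, Shmt2 and Mthfd2, 10 of the 27928 genes listed. In mutant mice the mean Asns RNA of MZ B cells was 4.98-fold that of FO B cells, which passed the test, and in WT it was 3.15-fold, which did not. The genotypes were not shown to differ in this, and the call in mutant mice was lost on leaving out some single libraries. Trib3 RNA was lower in MZ B cells, by 3.91-fold in WT and 4.41-fold in mutant mice, and passed the test in both. These calls, too, were lost on leaving out some single libraries. Atf4 RNA itself, and that of its target Ddit3, had overlapping values in FO and MZ B cells of both genotypes. The mitochondrial one-carbon enzymes Mthfd2 and Shmt2 were at 1.25-fold to 1.55-fold the FO level in MZ B cells. Both passed the p threshold in both genotypes, narrowly apart from Shmt2 in WT. Each of these passes was lost on leaving out some single libraries. Only Mthfd2 in mutant mice also passed the fold cutoff.

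The cells were sorted by flow cytometry from spleens of young adult mice. FO B cells were gated as CD21-low and CD23-high, and MZ B cells as CD21-high and CD23-low. WT mice were C57BL/6. The mutant mice (cKO, Gtf2i fl/fl, also labelled C57BL/6) carry floxed alleles of Gtf2i, which encodes the transcription factor TFII-I, and a Cre that acts throughout the B lineage. The WT mice carried neither the floxed alleles nor the Cre. There were 2 RNA libraries in each of the 4 groups WT FO, WT MZ, cKO FO and cKO MZ, with 21546552 to 25083552 reads on genes per library. The labels do not say whether the libraries came from separate mice, so the p-values measure the spread between libraries, which may be technical. For cKO FO, the sex-linked RNA given below shows different sets of mice, so that spread was not technical alone.

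The values are normalized counts, that is, reads on a gene divided by a size factor of the library. The genes that define the gates followed the labels. Cr2, which encodes CD21, was at 22942 to 26803 normalized counts in FO and 86953 to 97087 in MZ libraries, and Fcer2a, which encodes CD23, was at 24802 to 41973 in FO and 3069 to 6708 in MZ libraries. Gtf2i was at 1992 to 2864 normalized counts in WT and 1523 to 1889 in cKO libraries. The replicate 1 library of cKO MZ stood apart in RNA of other cells. It held 1849 summed normalized counts of 8 granulocyte genes and 4823 of 4 erythroid genes, against 23.8 to 103 and 19.0 to 443 in the other 7 libraries. The replicate 1 library of cKO FO stood apart in sex-linked RNA, with 14748 normalized counts of Xist, the RNA of the inactive X chromosome, against 21.7 to 89.7 in the other 3 cKO libraries, beside 2682 of the Y-linked Ddx3y. Calls of members that were lost without either library are named beside their values.

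Atf4 is a basic leucine zipper transcription factor. When amino acids run short, or when unfolded protein accumulates in the endoplasmic reticulum, kinases phosphorylate the translation factor eIF2, general translation falls and the Atf4 protein is made from an mRNA that is already present. Atf4 then raises transcription of genes for amino acid synthesis, transport and tRNA charging, together with feedback genes such as Trib3 and Chac1. The level of Atf4 mRNA is a poor guide to the amount of its protein. MZ B cells are known for rapid differentiation into plasma cells, which load the secretory pathway, whereas FO B cells recirculate and mostly respond with T cell help.

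Atf4 binds as a heterodimer with C/EBP proteins to composite sites with the core TGATGNAA. This core was searched on both strands in the RefSeq promoters of GRCm38.p6, each reaching from 250 bases before to 50 bases after the transcription start. All 10 genes had an entry and 4 of them held the core, against 4.51% of the 27025 genes with an entry. The matches are shown, as 30-base windows on the strand of the gene with the 8 bases of the core in capitals, because they mark which of the 10 genes carry the Atf4 core near their start. A match is a description of the sequence and not a measure of binding, and no other motif was searched.
Asns: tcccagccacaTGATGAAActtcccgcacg
Trib3: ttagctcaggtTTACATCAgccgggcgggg
Chac1: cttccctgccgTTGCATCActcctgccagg
Slc7a11, first match: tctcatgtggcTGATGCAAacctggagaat
Slc7a11, second match: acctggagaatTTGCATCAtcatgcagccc

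The Asns window lies at chr6:7693214-7693243 on the minus strand, and its core begins 23 bases before the start, on the strand of the gene. The Trib3 window lies at chr2:152344028-152344057 on the minus strand, with the core at base 15 of the transcript on the opposite strand. In Chac1 (chr2:119351038-119351067, plus strand) the core begins 193 bases before the start, on the opposite strand. Slc7a11 (chr3:50443661-50443690 and chr3:50443642-50443671, minus strand) holds a pair of cores in opposite orientation, 66 and 47 bases before the start. Asns and Trib3 thus both carry the core, and their RNA differed between FO and MZ B cells in opposite directions. The promoters of Atf4, Ddit3, Phgdh, Psat1, Shmt2 and Mthfd2 did not hold these letters in this window. Among other genes of the pathway, 7 of 17 partners and known targets of Atf4, 5 of 13 tRNA synthetases and 1 of 7 amino acid transporters with an entry held the core. None of the 20 serine, glycine and one-carbon enzymes, the 7 eIF2 kinase and phosphatase genes and the 9 glutathione and cystine genes did, which makes 13 of 73, or 17.8%.

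Per kilobase of exon, and averaged over the 8 libraries, Atf4 was at 5202 normalized counts, far above the other members. Shmt2 (788), Ddit3 (699), Phgdh (275), Psat1 (138) and Mthfd2 (115) followed. Trib3 (16.3), Asns (11.4), Chac1 (2.69) and Slc7a11 (0.266) were the lowest, and these are the 4 genes whose promoters hold the Atf4 core. The ranges over the libraries overlapped between the neighbours Shmt2 and Ddit3, Psat1 and Mthfd2, Trib3 and Asns, Asns and Chac1, and Chac1 and Slc7a11. They did not overlap between Atf4 and Shmt2, Ddit3 and Phgdh, Phgdh and Psat1, or Mthfd2 and Trib3.

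The question of each comparison was how FO and MZ B cells differ within a genotype. Values were compared on the scale of log2(normalized count + 1) with limma, fitting the 8 libraries together, over 14761 genes whose normalized count averaged at least 10. A call needed a p of at most 0.05, adjusted over all these genes by Benjamini-Hochberg, and a difference of 1.5-fold or more. The pseudocount of 1 makes the log2 differences of low genes smaller. Of the 10 members 8 were tested, since Chac1 and Slc7a11 were below the minimum. Exact permutation tests of 2 against 2 libraries cannot give a p below 0.333, so each call rests on the spread that limma estimates across genes.

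In WT, 0 of the 8 tested members were called higher in MZ B cells, against 7.41% of all tested genes, and 1 (Trib3) was called higher in FO B cells, against 4.62%. In cKO, 2 (Asns and Mthfd2) were called higher in MZ, against 8.18% of all tested genes, and 1 (Trib3) was called higher in FO, against 5.54%. Counted by library, both MZ libraries lay above both FO libraries for 4 of the 8 members in WT (Asns, Phgdh, Shmt2 and Mthfd2) and 5 in cKO (the same 4 and Psat1), where 28.2% and 32% of all tested genes did so. Both FO libraries lay above both MZ libraries for Trib3 alone in either genotype, against 27.2% of all tested genes in WT and 33.1% in cKO. The median log2 difference of the 8 members, MZ minus FO, was 0.24 in WT and 0.29 in cKO, and that of all tested genes was -0.0048 and -0.0047.

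**Figure D1:**
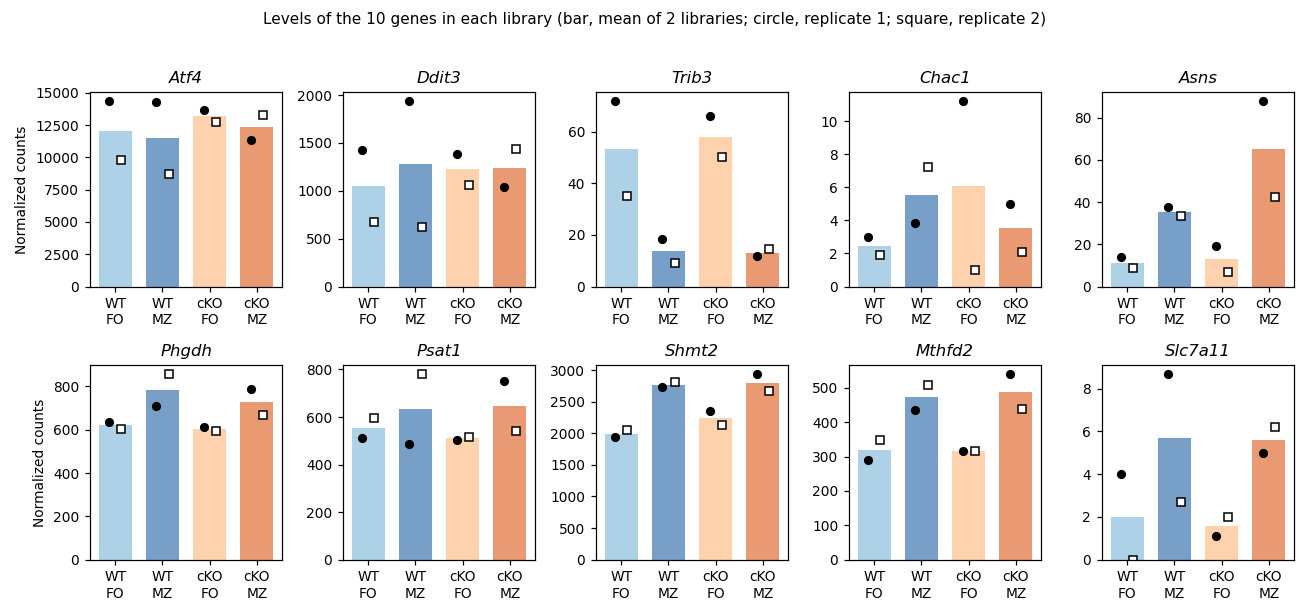
Normalized counts (vertical axes, each from 0) of the 10 genes in the 4 groups, with the mean of 2 libraries as a bar, replicate 1 as a circle and replicate 2 as an open square. Asns is higher in every MZ library (33.5 to 87.7) than in every FO library (7.05 to 19.0), Trib3 is lower in every MZ library (9.06 to 18.3), and the Atf4 values of the groups overlap.

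Asns (ENSMUSG00000029752.12, chr6:7675169-7693254, minus strand, GRCm38) encodes asparagine synthetase, which makes asparagine from aspartate with glutamine as the nitrogen donor. Its normalized counts were 14.0 and 8.56 in FO against 37.6 and 33.5 in MZ libraries of WT, and 19.0 and 7.05 in FO against 87.7 and 42.3 in MZ libraries of cKO. Each MZ library was above each FO library, and replicate 1 of cKO MZ was the highest. WT cells averaged 11.3 ± 3.82 (SD, n = 2) as FO and 35.5 ± 2.87 (SD, n = 2) as MZ cells. In cKO the averages were 13.04 ± 8.48 (SD, n = 2) for FO and 65.0 ± 32.1 (SD, n = 2) for MZ cells. These are low levels, with 7 to 88 reads per library.

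The log2 difference of Asns, MZ minus FO, was 2.29 in cKO (standard error 0.55, limma adjusted p = 0.0254) and 1.61 in WT (standard error 0.55, limma adjusted p = 0.0916), so it was called in cKO and not in WT. The difference between the genotypes was itself 0.68 (standard error 0.78, limma adjusted p = 1), so the MZ to FO difference was not shown to differ between WT and cKO, and it ran from 0.021 to 1.34 on leaving out a library, with 0.16 without cKO MZ replicate 1 and 0.021 without cKO FO replicate 2. The call in cKO was lost without cKO MZ replicate 1, the library with the granulocyte and erythroid RNA (log2 difference 1.77, limma adjusted p = 0.172), and without cKO FO replicate 2 (1.63, limma adjusted p = 0.116). Without cKO FO replicate 1, the library with the Xist RNA, Asns was called (2.95, limma adjusted p = 0.0294).

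The genes whose pattern was most like that of Asns were ranked by the root mean square difference of their centred log2 values over the 8 libraries, among all tested genes. They were Ly6k (0.26), 2900005J15Rik (0.27), Jdp2 (0.29), D830035M03Rik (0.35) and Acer2 (0.35), where the median gene was at 1.14. Jdp2, a basic leucine zipper protein of the Atf and Jun families, had 20.0 and 18.1 normalized counts in FO against 78.0 and 64.3 in MZ libraries of WT, and 30.2 and 16.1 in FO against 108 and 94.9 in MZ libraries of cKO. Like Asns it was higher in each MZ library than in each FO library, and at least 1 of its 3 RefSeq promoters holds the Atf4 core. This measure counts the size of the differences as well as their order. By it no other member was near, since the closest, Mthfd2, was at 0.85 and Trib3 at 2.03. In order alone, Phgdh, Shmt2 and Mthfd2 also had both MZ libraries above both FO libraries in each genotype, with smaller differences.

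Trib3 (ENSMUSG00000032715.9, chr2:152337422-152344032, minus strand) encodes a pseudokinase that binds Atf4 and limits its activity. Its normalized counts were 71.9 and 35.2 in FO against 18.3 and 9.06 in MZ libraries of WT, and 66.1 and 50.3 in FO against 11.96 and 14.4 in MZ libraries of cKO. Both FO libraries were above both MZ libraries in each genotype, and in WT replicate 1 was close to 2 times replicate 2 in both subsets. The log2 difference, MZ minus FO, was -1.88 in WT (standard error 0.47, limma adjusted p = 0.0325) and -2.05 in cKO (standard error 0.47, limma adjusted p = 0.0212), a call in both. On leaving out a library the difference lay between -2.39 and -1.38 in WT and between -2.25 and -1.86 in cKO. The call in WT was then lost without WT FO replicate 1, WT MZ replicate 2 or any of the 4 cKO libraries (limma adjusted p between 0.0573 and 0.169), with no filter on low counts (0.0584) and in a fit of only the 4 WT libraries (0.115), and the call in cKO was lost without any of the 4 cKO libraries (between 0.0690 and 0.126).

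Atf4 (ENSMUSG00000042406.8, chr15:80255184-80257541, plus strand) was at 14342 and 9781 normalized counts in FO against 14296 and 8707 in MZ libraries of WT, and 13639 and 12728 in FO against 11329.5 and 13312 in MZ libraries of cKO. The FO and MZ values overlapped in both genotypes, and the WT replicates were further apart than the subsets. Its log2 difference, MZ minus FO, was -0.09 in WT (standard error 0.25, limma adjusted p = 0.860) and -0.10 in cKO (standard error 0.25, limma adjusted p = 0.815). Under quantile normalization these values were 0.016 and 0.038, so the sign of so small a difference depends on the scaling.

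Ddit3 (ENSMUSG00000025408.15, chr10:127290774-127296288, plus strand) encodes Chop, a C/EBP family protein that Atf4 induces under prolonged stress. It was at 1425 and 674 normalized counts in FO against 1935 and 620.4 in MZ libraries of WT, and 1386 and 1061 in FO against 1042 and 1433 in MZ libraries of cKO, with overlap between the subsets in both genotypes. WT had a log2 difference of 0.16 and cKO of 0.01 (standard error 0.53 each, limma adjusted p = 0.877 and 0.992). Exons of Ddit3 overlap those of Mars and Gm4189 on the opposite strand, and whether the counting used strand is not given in the sources used here, so reads of these genes may not be told apart.

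Chac1 (ENSMUSG00000027313.3, chr2:119351229-119354381, plus strand), which encodes an enzyme that breaks down glutathione and is a target of Atf4, had 1 to 10 reads per library. The reads were 3 and 2 in FO against 4 and 8 in MZ libraries of WT, and 10 and 1 in FO against 5 and 2 in MZ libraries of cKO. Slc7a11 (ENSMUSG00000027737.10, chr3:49892526-50443614, minus strand), the cystine and glutamate exchanger, had 4 and 0 reads in FO against 9 and 3 in MZ libraries of WT, and 1 and 2 against 5 and 6 in those of cKO. The MZ reads lay above the FO reads for Chac1 in WT and for Slc7a11 in cKO, at counts of at most 8. Both genes were below the minimum of the test, and in a fit with no filter on low counts neither was called (limma adjusted p between 0.414 and 0.933).

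**Figure D2:**
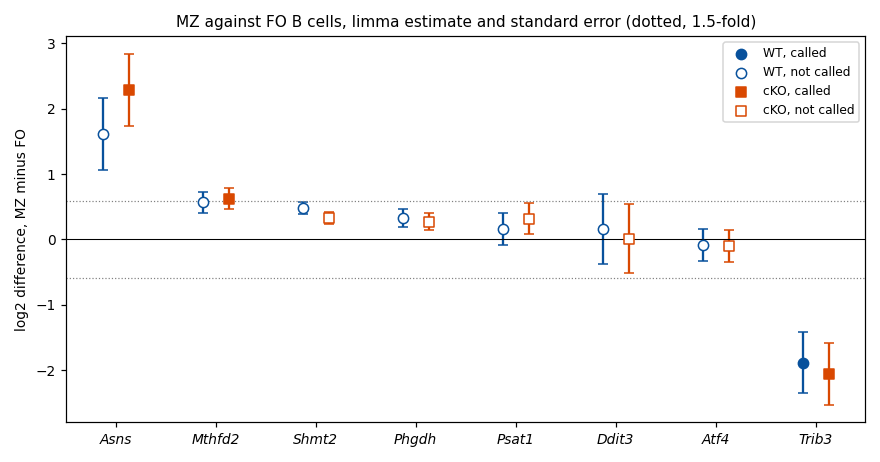
Log2 difference between MZ and FO B cells (vertical axis, MZ minus FO) of the 8 tested members in WT (circles) and cKO (squares), with the limma standard error as bars. Filled symbols are called and dotted lines mark 1.5-fold. Asns lies at 1.61 and 2.29, Trib3 at -1.88 and -2.05, and Atf4 at -0.09 and -0.10.

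Of the enzymes of serine synthesis and of the mitochondrial folate cycle, Mthfd2 and Shmt2 passed the p threshold in both genotypes with all 8 libraries, with the higher level in MZ B cells, and Phgdh and Psat1 did not. Phgdh and Psat1 catalyse the opening steps of serine synthesis from 3-phosphoglycerate. Shmt2 splits serine into glycine and a one-carbon unit in mitochondria, and Mthfd2 oxidizes that unit. All 4 are targets of Atf4 in other cell types.

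Mthfd2 (ENSMUSG00000005667.8, chr6:83305691-83325908, minus strand) had 289 and 349 normalized counts in FO against 436 and 509.9 in MZ libraries of WT, and 317 and 315 in FO against 539 and 438 in MZ libraries of cKO, with each MZ library above each FO library. Its log2 difference, MZ minus FO, was 0.62 in cKO (standard error 0.16, limma adjusted p = 0.0326), a call. In WT it was 0.57 (standard error 0.16, limma adjusted p = 0.0494), past the p threshold but below 1.5-fold, and the p rose above the threshold on leaving out any of the 8 libraries (limma adjusted p between 0.0534 and 0.212), with no filter on low counts, with quantile normalization and in a fit of only the 4 WT libraries (between 0.0721 and 0.123). The call in cKO was lost with no filter on low counts (limma adjusted p = 0.0502), with quantile normalization (0.0514) and on leaving out any of the 4 cKO libraries, with a log2 difference of 0.47 (limma adjusted p = 0.215) without cKO MZ replicate 1 and of 0.62 to 0.77 (limma adjusted p between 0.0577 and 0.128) without 1 of the other 3.

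Shmt2 (ENSMUSG00000025403.5, chr10:127517123-127522444, minus strand) was at 1936 and 2047 normalized counts in FO against 2733 and 2808 in MZ libraries of WT, and 2351 and 2129.8 in FO against 2931 and 2664 in MZ libraries of cKO. The replicates lay close together, and each MZ library was above each FO library. The log2 difference was 0.48 in WT (standard error 0.092, limma adjusted p = 0.0118) and 0.32 in cKO (standard error 0.092, limma adjusted p = 0.0458), both past the p threshold and below 1.5-fold. In cKO the p rose above the threshold on leaving out any of the 8 libraries (limma adjusted p between 0.0559 and 0.255), the highest being without cKO MZ replicate 1 (log2 difference 0.25), with no filter on low counts, in a fit of only the 4 cKO libraries and by DESeq2 (adjusted p between 0.0569 and 0.0844). In WT it did so without WT FO replicate 1 (0.0644) or WT MZ replicate 2 (0.0565). Exons of Shmt2 overlap those of Ndufa4l2 on the opposite strand.

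Phgdh (ENSMUSG00000053398.11, chr3:98313170-98339990, minus strand) had 635 and 605 normalized counts in FO against 709 and 855 in MZ libraries of WT, and 612 and 592 in FO against 786 and 669 in MZ libraries of cKO. The MZ libraries lay above the FO libraries, but the differences, 0.33 for WT and 0.27 for cKO on the log2 scale (standard error 0.13 each), did not pass the test (limma adjusted p = 0.137 and 0.198). RefSeq lists a pseudogene of Phgdh, with which the counting could have shared reads. Psat1 (ENSMUSG00000024640.9, chr19:15904678-15947337, minus strand) had 509.9 and 597 in FO against 487 and 779 in MZ libraries of WT, and 505 and 516 in FO against 751 and 541 in MZ libraries of cKO. Its WT values overlapped, and the subsets differed by 0.16 in WT and 0.32 in cKO on the log2 scale (standard error 0.24 each, limma adjusted p = 0.714 and 0.392). Without cKO MZ replicate 1 the difference of Psat1 in cKO was 0.084 (limma adjusted p = 0.895).

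Within MZ, the summed proliferation genes had the same order of libraries as these enzymes. Summed over 10 genes, they were at 2682 and 3340.3 normalized counts in FO against 4927 and 10948 in MZ libraries of WT, and 2446 and 2506 in FO against 9552 and 4414 in MZ libraries of cKO. In both MZ groups the library with the higher sum, replicate 2 of WT and replicate 1 of cKO, was also the higher for Phgdh, Psat1, Shmt2 and Mthfd2. This order was not particular to them. Over all 14761 tested genes, deviations of same-numbered libraries correlated at -0.296 between WT MZ and cKO MZ. In FO the sum was higher in replicate 2 of both genotypes. Psat1 followed this order there, Mthfd2 and Shmt2 did so in WT alone, and Phgdh did not. Asns did not follow the order of the sums in WT MZ, where it was at 33.5 in the library with the higher sum and 37.6 in the other. Plasma cell genes, summed over 5, followed the same order within MZ, with 1809.7 and 5118 in WT and 3089 and 1656 in cKO, against 1021 to 2190.1 in FO libraries. So did 6 macrophage genes, with 433 and 1311 in WT and 1263 and 881 in cKO, against 430.1 to 932 in FO libraries. Summed over 5, dendritic cell genes were at 306 to 506 in MZ and 189 to 257 in FO libraries. As for Asns, the MZ and FO libraries did not overlap, and the same held for the sums of the proliferation genes. The part of dividing cells, of plasma cells and of other cell types in these differences was not tested, and in sorted bulk samples a different mix of cells and a different level per cell cannot be told apart.

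**Figure D3:**
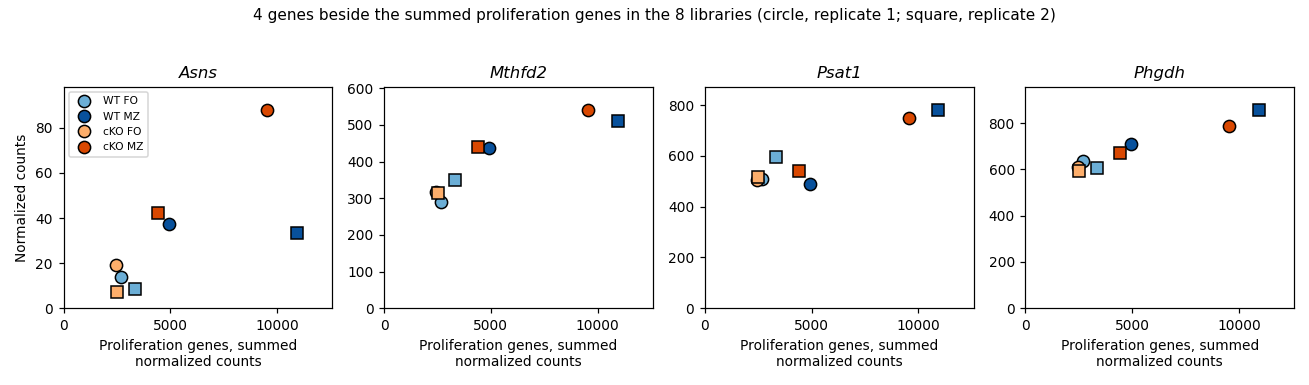
Normalized counts of Asns, Mthfd2, Psat1 and Phgdh (vertical axes, from 0) against the summed normalized counts of 10 proliferation genes (horizontal axes, from 0), with 1 point for each of the 8 libraries, coloured by group. The highest sums belong to WT MZ replicate 2 (10948) and cKO MZ replicate 1 (9552), which are also the highest 2 for Mthfd2, Psat1 and Phgdh but not for Asns.

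The spread between replicates was uneven among the members. In WT, replicate 1 was above replicate 2 in both subsets for Atf4 (by 0.55 in FO and 0.72 in MZ, log2), Ddit3 (1.08 and 1.64) and Trib3 (1.01 and 0.94). Differences as large in both subsets were seen for 3.88%, 0.664% and 1.79% of all tested genes. Asns was above in replicate 1 of all 4 groups, by 0.65 and 0.16 in FO and MZ of WT and by 1.32 and 1.04 in those of cKO, as large in both subsets for 6.66% of all tested genes in WT and 0.278% in cKO. The partner genes Atf3, at 1421 and 147 in FO and 6474 and 693 in MZ libraries of WT, and Ppp1r15a, at 15684 and 8399 in FO and 33024 and 13229 in MZ libraries, had the same order. Atf3 is a stress-induced repressor, and Ppp1r15a directs the phosphatase that removes the phosphate from eIF2. In cKO MZ the order was the other way for all 5 of these genes. The serine and one-carbon members did not share this order in WT. Replicate 2 was above replicate 1 in both subsets for Psat1, Mthfd2 and Shmt2. For Psat1 the log2 difference, replicate 1 minus 2, was -0.23 in FO and -0.68 in MZ. It was -0.27 and -0.22 for Mthfd2, -0.08 and -0.04 for Shmt2, and 0.07 and -0.27 for Phgdh.

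**Figure D4:**
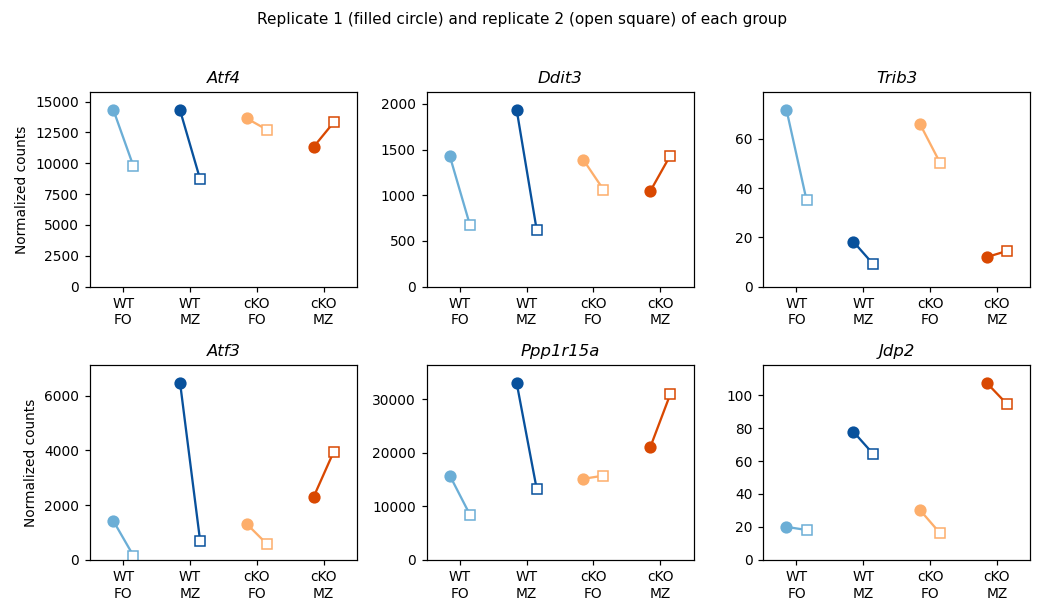
Normalized counts (vertical axes, from 0) of Atf4, Ddit3, Trib3, Atf3, Ppp1r15a and Jdp2 in replicate 1 (filled circle) and replicate 2 (open square) of each group, joined by a line. In WT FO and WT MZ the first 5 genes are all higher in replicate 1, for example Ddit3 at 1425 against 674 and 1935 against 620.4, while in cKO MZ replicate 2 is higher.

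Between genotypes, 0 of the 8 tested members were called in FO or in MZ B cells. Of all tested genes, 0.0542% were called higher and 0.0135% lower in cKO FO, and 0.0339% higher and 0% lower in cKO MZ. The number of members with an unadjusted p under 0.05 was 0 in both subsets. DESeq2 and edgeR on the recovered reads called 0 as well. Among all 14761 tested genes, 382 in FO and 596 in MZ had an unadjusted p under 0.05. With so few over all genes, a count of 0 among 8 members does not set the members apart. Log2 differences of the members, cKO minus WT, lay between -0.11 and 0.31 in FO and between -0.10 and 0.76 in MZ. The highest was that of Asns in MZ (0.76, standard error 0.55, limma adjusted p = 0.998), where both cKO libraries were above both WT libraries. Without cKO MZ replicate 1, the library with the granulocyte and erythroid RNA, it was 0.25. In FO the difference of Asns was 0.09, and -0.57 without cKO FO replicate 1. The interaction of genotype and subset was called for 0 members and for 0% of all tested genes. For it, 0 members had an unadjusted p under 0.05 and 0 were called by DESeq2 or edgeR. Of all 14761 tested genes, 94 had an unadjusted p under 0.05 for the interaction, so this count does not set the members apart either. Y-linked Ddx3y was at most 6.34 normalized counts in WT and at least 2682 in cKO libraries, and Xist was at least 25930 in WT libraries, so genotype and sex-linked expression cannot be told apart.

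The rest of the pathway was described by 6 lists holding 96 other genes, of which 86 were tested. In WT, 7 were called higher in MZ and 0 higher in FO. In cKO, 7 were called higher in MZ and 3 higher in FO. Against the background of 7.41% and 4.62% in WT and of 8.18% and 5.54% in cKO, calls higher in MZ were about as frequent as among all genes, and calls higher in FO were not more frequent. Of the 7 genes called higher in MZ in cKO, 1 (Sfxn1) was called without cKO MZ replicate 1, and the count was 4 without either cKO FO library. In WT the count was 4 without WT MZ replicate 1. The median log2 difference of the 86 genes, MZ minus FO, was 0.084 in WT and 0.10 in cKO.

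The list of eIF2 kinases and the phosphatase arm, which signal to Atf4, had 0 of 9 called by limma in either genotype with all 8 libraries and no block. The medians were 0.16 in WT and 0.13 in cKO. Of the 9, 1 in WT and 3 in cKO had an unadjusted p under 0.05. Among all 14761 tested genes, 4469 in WT and 4933 in cKO did, so these counts were not above the background. DESeq2 and edgeR on the recovered reads called none of the 9. Impact, a regulator of Gcn2, and Ppp1r15a were called higher in MZ in cKO with only the 4 cKO libraries fitted and in WT without WT MZ replicate 2. Eif2ak4, which encodes the amino acid sensor Gcn2, was at 2124 and 2298 normalized counts in FO against 1935 and 2019 in MZ libraries of WT, and 2206 and 2479 in FO against 1787 and 2067 in MZ libraries of cKO, with FO above MZ in both genotypes and a log2 difference of -0.16 and -0.28 (limma adjusted p = 0.362 and 0.104). For Eif2ak3, which encodes Perk, the kinase of the endoplasmic reticulum, WT differed by -0.32 and cKO by -0.47 (limma adjusted p = 0.256 and 0.0985). Ppp1r15a had 0.86 and 0.72 (limma adjusted p = 0.234 and 0.293).

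Among basic leucine zipper partners and other Atf4 targets, 14 of 20 genes were tested. Jdp2 was called higher in MZ in both genotypes, with log2 differences of 1.84 in WT (standard error 0.35, limma adjusted p = 0.0107) and 2.14 in cKO (standard error 0.35, limma adjusted p = 0.00507). Pck2, the mitochondrial phosphoenolpyruvate carboxykinase, was called lower in MZ in cKO (-0.60, limma adjusted p = 0.00979), and in WT it was at -0.53 (limma adjusted p = 0.0182), below 1.5-fold. Atf3 had large differences of 2.21 and 1.80 that did not pass the test (standard error 1.23, limma adjusted p = 0.276 and 0.349). Cebpb, Cebpg and Atf5, further partners or relatives of Atf4, were not called, at 0.34, -0.57 and 0.16 in WT and 0.18, -0.46 and -0.03 in cKO. The list's medians were 0.17 in WT and 0.17 in cKO.

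Calls among the genes of transport and tRNA charging are given beside the share of all tested genes. That share was 7.41% in WT and 8.18% in cKO for calls higher in MZ, and 4.62% and 5.54% for calls higher in FO. Of 10 tested amino acid transporters, Slc43a1, a carrier of large neutral amino acids, was called higher in MZ in both genotypes (log2 difference 1.29 and 1.62, limma adjusted p = 0.0481 and 0.0189). Slc38a1, a glutamine carrier, was called lower in MZ in cKO (-0.59, limma adjusted p = 0.00198), and was at -0.47 in WT (limma adjusted p = 0.00604), below 1.5-fold. Slc3a2, which encodes the heavy chain that pairs with Slc7a11, was at 4148 and 3238 normalized counts in FO against 6165 and 3039 in MZ libraries of WT, and 4067 and 3598 in FO against 3655 and 4813 in MZ libraries of cKO, so its subsets overlapped. The medians of the transporters were -0.095 and -0.12. Of the 20 cytosolic aminoacyl-tRNA synthetases 0 were called in WT, and in cKO only Cars was called, lower in MZ (-0.59, limma adjusted p = 0.0143). Their medians were 0.041 and 0.057.

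The serine, glycine and one-carbon enzymes other than the members held 5 calls of 23 tested in WT and 5 in cKO, all higher in MZ, with medians of 0.25 in both. Among all tested genes 7.41% in WT and 8.18% in cKO were called higher in MZ. Called in both genotypes were Tyms, the thymidylate synthase of DNA synthesis (1.76 in WT and 1.51 in cKO), Sfxn1, the mitochondrial serine carrier (1.05 and 1.18), Gcsh, a carrier protein of glycine cleavage (0.85 and 1.05), and Mthfd1, the cytosolic folate enzyme (0.59 in both), with limma adjusted p between 0.000805 and 0.0121. Sfxn1 was at 817 and 1019 normalized counts in FO against 1804 and 1977 in MZ libraries of WT, and 930.4 and 1025 in FO against 2249 and 2178 in MZ libraries of cKO, with each MZ library above each FO library. Aldh1l2, which oxidizes formyl-folate in mitochondria, was called in cKO (1.62, limma adjusted p = 0.0256) and was at 0.74 in WT (limma adjusted p = 0.254). Apart from that of Sfxn1, these calls in cKO were lost without cKO MZ replicate 1, the library with the granulocyte and erythroid RNA. The same held for the calls of Jdp2 and Slc43a1 in cKO.

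Aldh1l1, the cytosolic counterpart of Aldh1l2, differed from the other enzymes in its levels by genotype. It had 1.996 and 1.90 normalized counts in FO against 12.5 and 14.5 in MZ libraries of WT, and 50.4 and 69.5 in FO against 88.7 and 74.2 in MZ libraries of cKO. Each WT FO library had at most 3 reads, and against a floor of 3 reads per library WT MZ was at least 4.62-fold higher, a call in WT (limma adjusted p = 0.00462). In cKO its log2 difference, MZ minus FO, was 0.45 (limma adjusted p = 0.412). The interaction of -1.85 was not called (standard error 0.50, limma adjusted p = 1). By limma, Aldh1l1 was the only gene of the 86 called between genotypes, higher in cKO FO.

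The isozymes and partners of the members were also followed. Shmt1, the cytosolic counterpart of Shmt2, differed by 0.51 in WT and by 0.52 in cKO, log2 (limma adjusted p = 0.0967 and 0.0830), with each MZ library above each FO library. Psph, which completes serine synthesis after Psat1, was at 0.50 and 0.47 (limma adjusted p = 0.0194 and 0.0234), past the p threshold and below 1.5-fold. Mthfd1l was at 0.06 and 0.16 and Mthfd2l at 0.08 and 0.03, neither called. Of the 10 tested glutathione and cystine genes 0 were called, and Chac2, the relative of Chac1, was at 0.72 and 0.64 (limma adjusted p = 0.210 and 0.243).

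**Figure D5:**
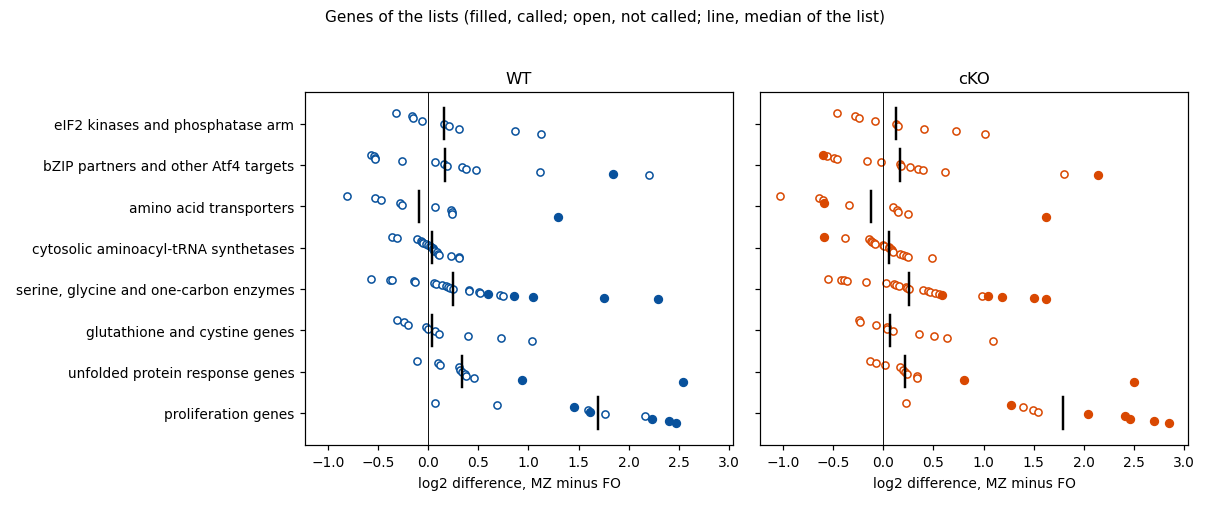
Log2 differences, MZ minus FO (horizontal axes), of the tested genes of 8 lists in WT and cKO, with called genes filled, other genes open and the median of each list as a vertical line. The medians of the Atf4 pathway lists lie between -0.12 and 0.25, and those of the proliferation genes at 1.69 and 1.79.

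A pair of lists outside the pathway was followed beside it. Of 11 genes of the unfolded protein response, which shares the kinase Perk with the amino acid response, Pdia4 and Edem1 were called higher in MZ in both genotypes. Pdia4, a protein disulfide isomerase, was at 4762 and 5088 normalized counts in FO against 27967 and 29442 in MZ libraries of WT, and 5361 and 4751 in FO against 31525 and 26003 in MZ libraries of cKO (log2 difference 2.54 and 2.50, limma adjusted p = 3.01e-05 and 3.15e-05). Edem1, which directs misfolded proteins to degradation, was at 0.94 and 0.81. Of the 10 proliferation genes 5 were called higher in MZ in WT and 6 in cKO, among them Mki67, with log2 differences of 2.40 and 2.85. On leaving out a library these counts ran from 0 to 8 in both genotypes. In WT the count was 0 without WT MZ replicate 2, WT FO replicate 1 or either cKO FO library and in a fit of only the WT libraries, and in cKO it was 0 without cKO MZ replicate 1 or either cKO FO library. The median of the 10 was then 1.14 in WT without WT MZ replicate 2 and 1.152 in cKO without cKO MZ replicate 1. Pdia4 and Edem1 were called in both genotypes on leaving out any library.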

How the data were processed

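RNA was sequenced as 50 bp single-end reads after depletion of ribosomal RNA, aligned by the authors with HISAT2 to mm10, counted with featureCounts and htseq-count and normalized with DESeq2. The deposited signal is a table of normalized counts, each being reads over the size factor that DESeq2 gave the library. Whole reads, within 0.001 of a read, were recovered for 100% of the values. After 256343 blank lines were left out, 27928 genes remained, of which 27872 identifiers were found in GENCODE M21, the source of coordinates and exon lengths. Depth was 21546552 to 25083552 reads on genes, so the 2 libraries per group, more than counting, limit precision for all but the low genes. These include Chac1 and Slc7a11, and also Asns and Trib3, at 7 to 88 and 10 to 72 reads per library.

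Log2(normalized count + 1) entered limma 3.58.1 (R 4.3.3, functions lmFit and eBayes, trend on) for genes with a mean of at least 10, in 1 fit of the 4 groups, and adjusted by Benjamini-Hochberg over all 14761 genes. Contrasts were MZ minus FO in each genotype, cKO minus WT in each subset, and their interaction. Named genes are the members, up to 4 called genes per list by size of difference, stated isozymes and partners, and the 5 genes nearest to Asns in pattern. The members and the lists were chosen with earlier results of these data known. Alternatives were edgeR TMM scaling, quantile normalization, a pseudocount of 0.5, all genes without a filter, fits of only 4 libraries, replicate blocks, DESeq2 1.42.0 and edgeR 4.0.16 on the recovered reads, other fold cutoffs, and each library left out. A block with the numbers of cKO MZ exchanged, and the list counts and genotype differences without single libraries, were chosen after seeing the data. Tests were tried on simulated data. The 8 ATAC-seq samples were not analysed here.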

Additional observations from a re-analysis of the deposited data

How the results depend on the processing

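With 2 libraries per group, most calls of members were near the threshold. Members called higher in MZ in WT numbered 0 as reported, 1 (Asns) with a replicate block or a replicate block within genotype, and 2 without a fold cutoff. The labels do not say that a number marks a shared animal. Deviations of same-numbered libraries correlated at 0.591 between WT FO and WT MZ, at -0.0015 in cKO, and at -0.296 between WT MZ and cKO MZ, and exchanging the numbers of cKO MZ left 0 members called between genotypes in MZ. Under the replicate block the limma adjusted p of Asns in WT was 0.0310, and 0.0142 within genotype. The block within genotype also called Impact, Ppp1r15a and Atf3 higher in MZ in both genotypes. In cKO, however, Xist was at 14748 normalized counts in FO replicate 1 and 89.7 in MZ replicate 1. That number thus did not mark the same set of mice, so calls of this block in cKO rest on unmatched libraries. Members called higher in FO in WT fell from 1 to 0 with no filter on low counts and with only the 4 libraries compared, and were 0 to 1 on leaving out a library. Members called higher in MZ in cKO fell from 2 to 1 with no filter, quantile normalization or a cutoff of 2-fold, and were 0 to 2 on leaving out a library, with 0 without cKO FO replicate 2 or cKO MZ replicate 1. Those called higher in FO in cKO were 0 to 1 on leaving out a library. The counts of members for genotype and interaction were 0 under each alternative run.

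Other pathway genes called higher in MZ in WT, 7 as reported, were 4 with only the 4 libraries compared, 13 with a replicate block within genotype, 11 without a fold cutoff, and 4 to 7 on leaving out a library (4 without WT MZ replicate 1). Those higher in FO in WT, 0 as reported, were 1 with quantile normalization, 5 without a fold cutoff and 0 to 2 on leaving out a library. In cKO, 7 higher in MZ became 11 with only the 4 libraries compared, 12 with a replicate block within genotype, 13 without a fold cutoff, and 1 to 8 on leaving out a library, with 1 without cKO MZ replicate 1. The 3 higher in FO in cKO became 5 with a replicate block within genotype or with DESeq2 on the recovered reads, 7 without a fold cutoff, 0 with a cutoff of 2-fold, and 1 to 4 on leaving out a library.

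Of the log2 differences of single members under the alternatives, 29 changed sign, all of them differences that were not called. Quantile normalization turned that of Atf4 to 0.0158 in WT and 0.0380 in cKO, and its interaction to 0.0222. The others came from leaving out a library, over which Atf4 ranged from -0.44 to 0.27 in WT, from -0.22 to 0.015 in cKO and from -0.37 to 0.34 for the interaction, Ddit3 from -0.66 to 0.98, from -0.22 to 0.24 and from -0.97 to 0.67, and Psat1 in WT from -0.18 to 0.50. The interactions ranged from 0.021 to 1.34 for Asns, from -0.67 to 0.33 for Trib3, from -0.20 to 0.075 for Phgdh, from -0.18 to 0.50 for Psat1 and from -0.097 to 0.20 for Mthfd2. The direction of Asns, Trib3, Mthfd2, Shmt2 and Phgdh, MZ against FO, held in both genotypes under each alternative run. The cause of these shifts was not tested.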
